A study of Homo sapiens with 6 samples.

Results

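NF-kappa-B is a family of dimeric transcription factors, and the 10 genes described here encode its subunits and inhibitors that restrain it. They are the 5 subunit genes NFKB1, NFKB2, REL, RELA and RELB and the 5 inhibitor genes NFKBIA, NFKBIB, NFKBIE, NFKBIZ and TNFAIP3, taken by symbol from 18417 genes measured on the arrays, with 1 probe set each. All samples were of MDA-MB-231, a long-used human cell line from a breast cancer without hormone receptors or HER2 overexpression. The control group holds 3 untreated samples and the EC-70124 group 3 samples exposed to 500 nM EC-70124 for 24 h. EC-70124 is an indolocarbazole inhibitor of many kinases, and both groups were grown in the same serum-containing medium. A single line at a single dose and time limits what the groups stand for. The question of the comparison was which transcripts the drug changed, and here it is asked of the NF-kappa-B genes.

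In resting cells NF-kappa-B dimers are held in the cytoplasm by the I-kappa-B proteins, which mask the signal that takes them into the nucleus. When the I-kappa-B kinase complex phosphorylates an I-kappa-B protein, that protein is degraded and the dimer is released to bind kappa B sites in DNA. Several subunit and inhibitor genes are themselves NF-kappa-B targets, so that the pathway feeds back on its own level, and the messenger RNA of these genes is often read beside that of the cytokines the pathway controls. In MDA-MB-231 cells NF-kappa-B is known to be active without added stimulus.

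Treatment with EC-70124 up-regulated all 10 genes, by 1.16-fold for RELA to 4.71-fold for TNFAIP3, at an adjusted p under 0.05 from limma. By the same rule EC-70124 raised 19.7% of all 18417 genes and lowered 14.8% of them. The median log2 fold change was 1.01 over the 5 subunits and 1.29 over the 5 inhibitors, against -0.0045 over all genes. In each of the 10 genes the lowest EC-70124 array lay above the highest control array, as it did in 25.6% of all genes. Among all genes ordered by the size of their change in either direction, TNFAIP3 ranked 25 and RELA 6514. The values are intensities on a linear scale, deposited after normalization in the dChip software and taken here as log2, and the level of one probe set cannot be set against that of another. Because the arrays are scaled to each other, each change is relative to the other transcripts. A change in total RNA per cell would not be seen, and the amount of a transcript per cell is not measured. Leaving out 1 array at a time kept between 8 and 10 of the 10 genes past the threshold, with 8 remaining without control replicate 3 and 8 without EC-70124 replicate 2. With the methods' t-test, 6 of them passed after the Benjamini-Hochberg adjustment.

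**Figure D1:**
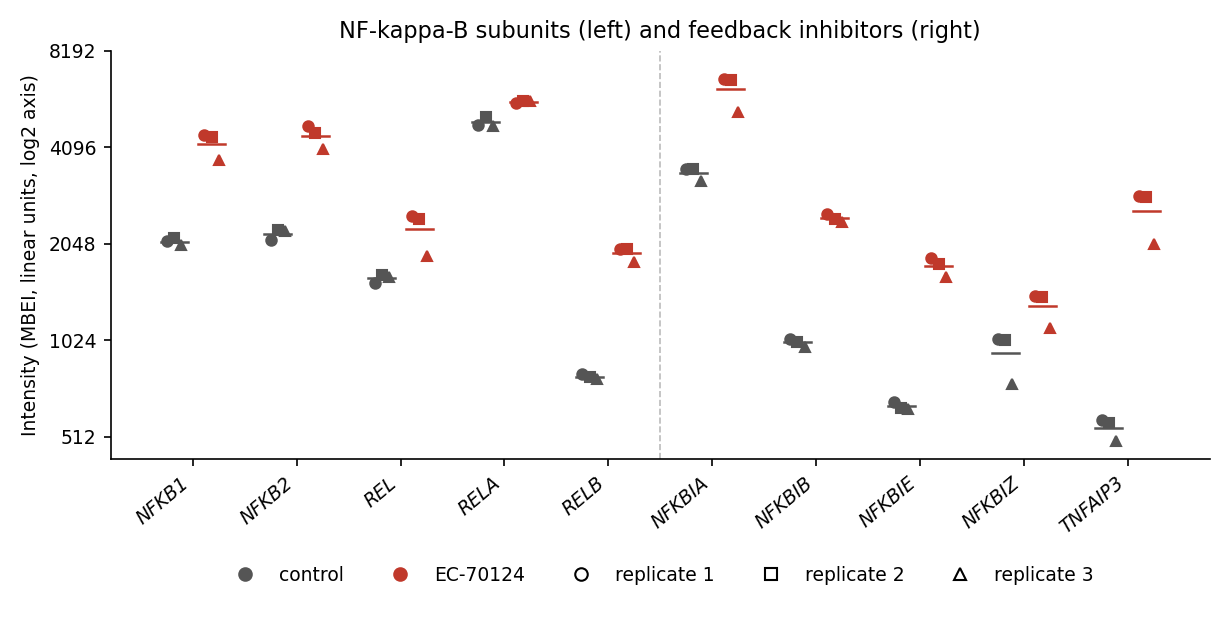
Intensity (y axis, log2 spacing) of each gene (x axis) in the 3 control arrays (gray) and the 3 EC-70124 arrays (red), with the symbol giving the replicate number and the bar the mean of 3 arrays. Every red point lies above every gray point of the same gene, and TNFAIP3 has the widest gap, from a mean of 546 to 2597.

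The RefSeq promoter table holds 8 of the 10 genes, all but RELB and NFKBIE. The 250 bases before the annotated start were searched on both strands for the kappa B consensus, the site that NF-kappa-B dimers bind, and 5 of the 8 held at least 1 match. Over the 14238 genes tested that have a promoter in the table, 5.78% held one, and over all 27303 promoters 5.05% did. A looser pattern, GGG and CC with any 5 bases between them, takes in every match to the consensus and was found in 7 of the 8 and in 64% of the promoters of genes tested. The share of G and C had a median of 64.2% in the 8 promoters and 62.8% in those of genes tested. The 5 promoters with a match are printed so that the sites can be seen in their surroundings, and that of NFKBIB because this gene rose by 2.44-fold with no match in the window. They are read 5′ to 3′ on the strand of the gene, in lower case, with every match in capitals.
NFKB1 (GRCh38.p14 chr4:102501109-102501358, plus strand): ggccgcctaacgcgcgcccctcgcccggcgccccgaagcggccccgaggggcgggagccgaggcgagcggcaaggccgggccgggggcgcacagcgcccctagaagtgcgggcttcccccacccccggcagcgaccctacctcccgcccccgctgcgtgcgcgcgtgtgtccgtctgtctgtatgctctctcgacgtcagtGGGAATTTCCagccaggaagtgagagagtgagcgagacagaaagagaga
REL (GRCh38.p14 chr2:60881324-60881573, plus strand): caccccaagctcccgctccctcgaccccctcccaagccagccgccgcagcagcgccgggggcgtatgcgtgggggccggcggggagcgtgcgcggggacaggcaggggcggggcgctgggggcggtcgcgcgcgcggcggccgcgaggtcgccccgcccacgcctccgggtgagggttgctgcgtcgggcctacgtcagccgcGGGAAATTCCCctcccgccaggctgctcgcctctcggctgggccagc
NFKBIA (GRCh38.p14 chr14:35404750-35404999, minus strand): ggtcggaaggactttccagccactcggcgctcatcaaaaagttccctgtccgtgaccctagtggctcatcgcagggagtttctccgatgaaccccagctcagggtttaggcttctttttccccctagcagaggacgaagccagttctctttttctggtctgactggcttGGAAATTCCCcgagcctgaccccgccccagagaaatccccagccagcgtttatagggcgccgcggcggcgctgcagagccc
NFKBIZ (GRCh38.p14 chr3:101827740-101827989, plus strand): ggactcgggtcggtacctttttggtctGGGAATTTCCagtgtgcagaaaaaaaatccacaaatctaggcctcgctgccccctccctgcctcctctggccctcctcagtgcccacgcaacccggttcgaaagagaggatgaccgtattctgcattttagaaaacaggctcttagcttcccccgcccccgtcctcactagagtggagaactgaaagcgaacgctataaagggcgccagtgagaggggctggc
TNFAIP3 (GRCh38.p14 chr6:137867009-137867258, plus strand): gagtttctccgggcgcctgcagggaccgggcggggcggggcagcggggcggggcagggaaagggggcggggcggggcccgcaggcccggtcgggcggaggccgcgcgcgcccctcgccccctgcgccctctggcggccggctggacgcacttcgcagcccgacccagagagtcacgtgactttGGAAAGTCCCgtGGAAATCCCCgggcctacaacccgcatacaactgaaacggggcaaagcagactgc
NFKBIB (GRCh38.p14 chr19:38899416-38899665, plus strand): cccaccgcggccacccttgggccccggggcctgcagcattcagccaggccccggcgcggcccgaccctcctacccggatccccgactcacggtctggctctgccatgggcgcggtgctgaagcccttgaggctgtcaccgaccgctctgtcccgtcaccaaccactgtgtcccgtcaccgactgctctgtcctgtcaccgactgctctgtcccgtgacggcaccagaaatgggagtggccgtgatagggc
Read on the strand where it fits the consensus, NFKB1, NFKBIA and NFKBIZ shared the same match, GGGAATTTCC. It began 49 bases before the start in NFKB1 and 223 bases before it in NFKBIZ, and it lay on the opposite strand in NFKBIA, between 81 and 72 bases before the start. REL held the letters GGGAAATTCC on its own strand and GGGAATTTCC on the other strand 1 base further on, so that both matches share most of their bases. In TNFAIP3 both matches lay on the opposite strand, GGGACTTTCC between 67 and 58 and GGGGATTTCC between 55 and 46 bases before the start. No match was found in the windows of NFKB2, RELA and NFKBIB, which says only that these letters are not in them. A match describes the sequence and does not show that the site is bound. The 5 genes with a match ran from a log2 fold change of 0.49 (REL and NFKBIZ) to 2.24 (TNFAIP3), and the 3 without from 0.22 (RELA) to 1.29 (NFKBIB).

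**Figure D2:**
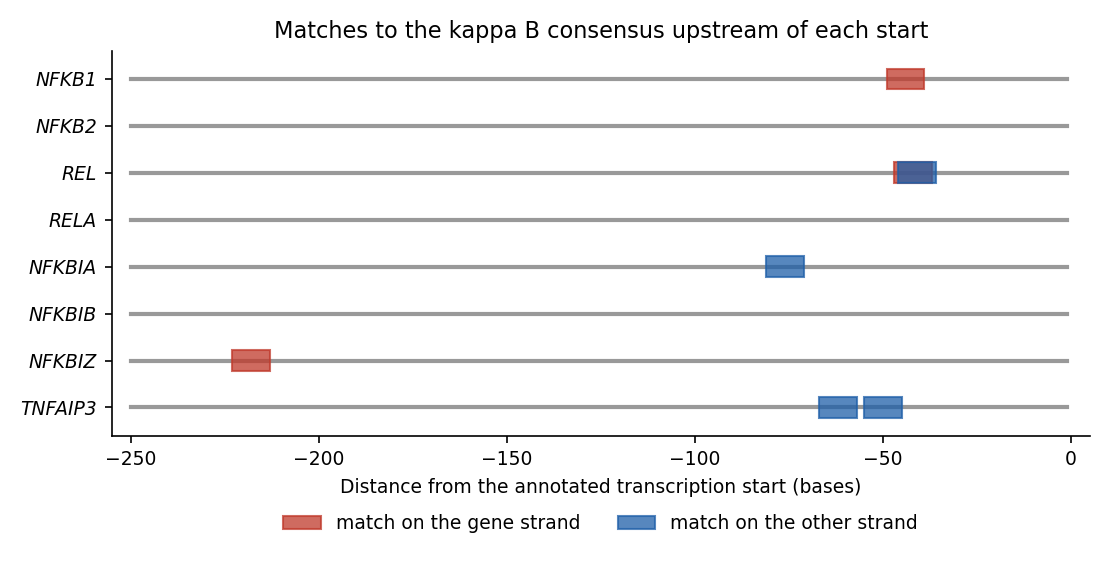
Position of each match to the kappa B consensus (boxes, red on the strand of the gene and blue on the other strand) in the 250 bases before the annotated start of 8 genes, with the distance from the start in bases on the x axis. Of the 5 genes with a match, 4 hold it within 81 bases of the start, and that of NFKBIZ begins 223 bases before it.

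Of the subunits, NFKB1 and NFKB2 encode the precursors p105 and p100, which are cut to the DNA-binding subunits p50 and p52 and, uncut, act as inhibitors. NFKB1 had intensities of 2089.5, 2129 and 2022 in control replicates 1, 2 and 3 and of 4465, 4395 and 3729 in EC-70124 replicates 1, 2 and 3. For NFKB2 they were 2106, 2265 and 2238 in the control arrays and 4772, 4533 and 4046 in the treated arrays. Both genes about doubled, with no overlap of the groups and with the third treated array the lowest. Their log2 fold changes were equal at 2 decimals, 1.01 for NFKB1 (SE 0.08 and limma adjusted p = 4.5e-05) and 1.01 for NFKB2 (SE 0.07 and limma adjusted p = 3.4e-05).

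RELB, the partner of p52 in the non-canonical branch of the pathway, had the largest change of the 5 subunits. Its intensity was 800.3, 787 and 776 in the control arrays and 1978, 1970.3 and 1795 in the treated arrays. The arrays of each group lay close together, with a mean of 788 ± 12.2 (SD, n = 3) in control and of 1915 ± 104 (SD, n = 3) in treated samples. The log2 fold change was 1.28 (SE 0.06 and limma adjusted p = 6.4e-06), which is 2.43-fold.

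REL and RELA encode the subunits c-Rel and p65, which carry a domain that activates transcription. For REL the control arrays had 1541, 1638 and 1617 and the treated arrays 2491, 2439 and 1877. The third treated array lay much nearer to the control arrays than the other two did, and the log2 fold change was 0.49 (SE 0.11 and limma adjusted p = 0.00763). With the methods' t-test REL had an adjusted p of 0.159, and its alternatives ran from 2.0e-04 to 0.159. RELA, whose product is the main activating partner of p50, had the smallest change of the 10 genes. It had 4807, 5101 and 4775 in the control arrays and 5621, 5728 and 5693 in the treated arrays, without overlap. This gap is a log2 fold change of 0.22 (SE 0.05 and limma adjusted p = 0.0148), or 1.16-fold. The call was lost without control replicate 1 (adjusted p = 0.0634), control replicate 3 (0.0518) or EC-70124 replicate 2 (0.0533), and with the methods' t-test (0.0658), and the alternatives ran from 0.00172 to 0.0658.

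Of the inhibitors, NFKBIA, NFKBIB and NFKBIE encode I-kappa-B alpha, beta and epsilon, the classical proteins that hold dimers in the cytoplasm. NFKBIA had 3505, 3507 and 3222 in the control arrays and 6692, 6648 and 5288 in the treated arrays. Treated replicates 1 and 2 were nearly equal, the third was lower, and all were above the control arrays. The log2 fold change of NFKBIA was 0.86 (SE 0.10 and limma adjusted p = 2.9e-04). Its adjusted p was 0.0523 with the methods' t-test, and the alternatives ran from 3.8e-05 to 0.0523. NFKBIB rose more evenly, from 1035, 1013 and 978 to 2534, 2453 and 2395. Its log2 fold change of 1.29 (SE 0.05 and limma adjusted p = 4.8e-06) rests on a spread of 69.9 (SD, n = 3) around a treated mean of 2461. NFKBIE had 657, 630.0 and 625 in the control arrays and 1854, 1775 and 1608 in the treated arrays. This is a log2 fold change of 1.45 (SE 0.07 and limma adjusted p = 6.3e-06), or 2.73-fold, the second largest of the 10 genes.

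TNFAIP3 encodes A20, a ubiquitin-editing enzyme that shuts off signaling upstream of the I-kappa-B kinases. It had 578, 564 and 496 in the control arrays and 2888, 2864 and 2038 in the treated arrays. Treated replicate 3 lay below the other two, and even so far above every control array. The log2 fold change was 2.24 (SE 0.14 and limma adjusted p = 1.6e-05), with a 95% interval of 1.92 to 2.55 that lay above the intervals of the 9 other genes. NFKBIZ encodes I-kappa-B zeta, an atypical member of the family that acts in the nucleus and also helps to switch on a set of secondary target genes. Its intensity was 1031, 1025 and 746 in the control arrays and 1410.2, 1393 and 1119 in the treated arrays. In both groups the third array was the lowest, and treated replicate 3 exceeded the highest control array by less than the control arrays differed among themselves. NFKBIZ had a log2 fold change of 0.49 (SE 0.14 and limma adjusted p = 0.0281). This call was lost after quantile normalization (adjusted p = 0.0503), when all probe sets were tested (0.0729), with the methods' t-test (0.172), and without control replicate 3 (0.0569), EC-70124 replicate 1 (0.0827) or EC-70124 replicate 2 (0.0869), and the alternatives ran from 0.00179 to 0.172.

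**Figure D3:**
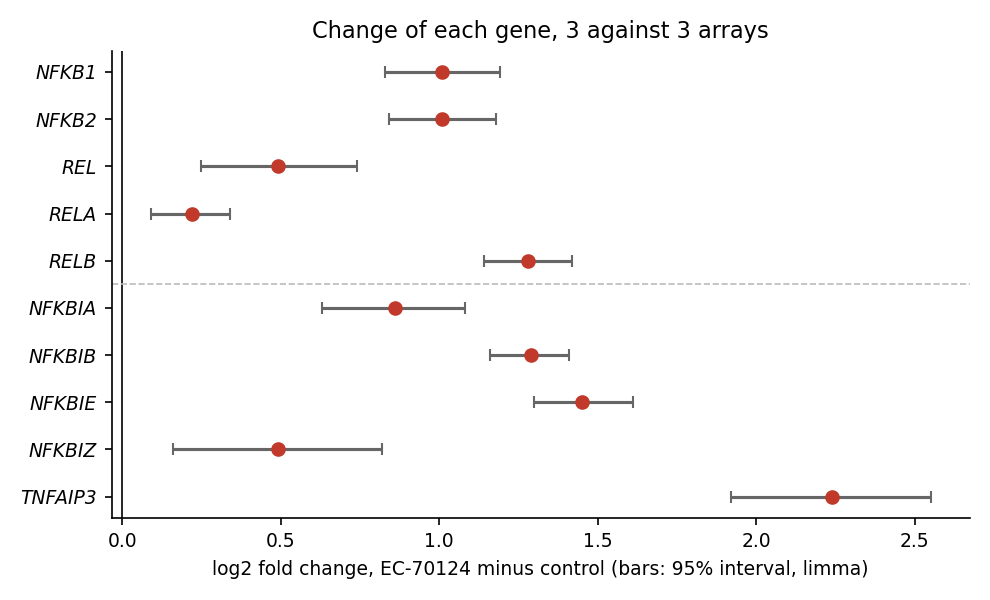
Log2 fold change of each gene (points, x axis, EC-70124 minus control, 3 arrays per group) with its 95% interval from limma (bars), the subunits above the dashed line and the inhibitors below it. All intervals lie above 0, from 0.09 at the lower end of RELA to 2.55 at the upper end of TNFAIP3.

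Ordered by log2 fold change, TNFAIP3 was followed by NFKBIE, NFKBIB, RELB, NFKB2, NFKB1, NFKBIA, REL, NFKBIZ and RELA. The intervals of NFKBIE (1.30 to 1.61), NFKBIB (1.16 to 1.41) and RELB (1.14 to 1.42) overlapped, as did those of NFKB2 (0.84 to 1.18), NFKB1 (0.83 to 1.19) and NFKBIA (0.63 to 1.08). The interval of NFKBIE lay wholly above that of NFKB1, and the interval of RELB wholly above that of RELA (0.09 to 0.34). At the lower end, REL (0.25 to 0.74) and NFKBIZ (0.16 to 0.82) overlapped as well, and the interval of RELA overlapped both. These sets of genes were not apart from each other, as NFKBIB and RELB overlapped NFKB2 and NFKB1, and NFKBIA overlapped REL and NFKBIZ.

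To compare related genes within the same array, the log2 ratio of 7 pairs was taken in each array, which cancels any scaling that an array has in common over its probe sets. The level of such a ratio has no meaning across probe sets, so that only its difference between the groups is read. The ratio of NFKB2 to NFKB1 differed by 0.0039 on the log2 scale, less than the spread between replicates (SD 0.07 in control and 0.04 in treated arrays, n = 3). The ratio of RELB to RELA was higher in every treated array than in any control array, by 1.06 on average, and that of REL to RELA was higher by 0.28 on average with overlap of the groups. In the third treated array the ratio of REL to RELA, -1.60, lay inside the control range of -1.64 to -1.56. Among the inhibitors, the groups did not overlap for any ratio to NFKBIA: the difference was 1.38 for TNFAIP3, 0.59 for NFKBIE, 0.43 for NFKBIB and -0.36 for NFKBIZ. For NFKBIZ the control arrays spread widely (SD 0.20, n = 3), and without control replicate 3 the difference was -0.48. In a 2-sided exact permutation test each of the 5 ratios without overlap had p = 0.1, the smallest that 3 against 3 arrays allow, and an adjusted p of 0.14 over the 7 pairs. REL over RELA had p = 0.2 (adjusted 0.233) and NFKB2 over NFKB1 had p = 0.9 in the same exact permutation test. A model with a pooled spread was not run on the ratios. For the 5 ratios without overlap, the exact permutation test could not give a pass with 3 against 3 arrays.

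**Figure D4:**
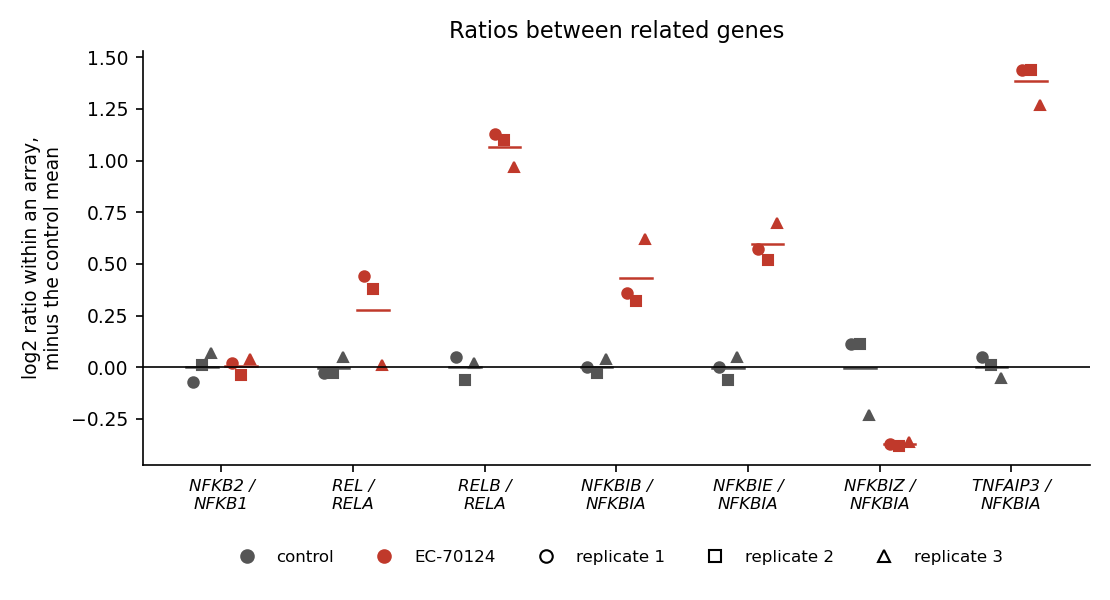
Log2 ratio between related genes within an array, minus the mean of the control arrays (y axis), for 7 pairs (x axis) in 3 control (gray) and 3 EC-70124 (red) arrays, with the symbol giving the replicate and the bar the mean. TNFAIP3 over NFKBIA shows the largest shift, 1.38, NFKB2 over NFKB1 shows none beyond the spread, and NFKBIZ over NFKBIA is the pair that lies below the control arrays, with a difference of -0.36.

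The size of the response varied between treated samples in a way that most of the 10 genes shared. EC-70124 replicate 3 was the lowest treated array for 9 of the 10 genes, RELA being the exception. Among the 3631 genes up-regulated overall it was the lowest for 40.2%. Against the mean of treated replicates 1 and 2, replicate 3 was lower by 0.50 on the log2 scale for TNFAIP3, 0.39 for REL, 0.34 for NFKBIA and 0.33 for NFKBIZ, and by 0.06 for NFKBIB. These offsets were smaller than the change itself for every one of these genes. Control replicate 3 was likewise the lowest control array for 8 of the 10 genes and for 47.9% of the genes up-regulated overall. The median intensity of the arrays ran from 437 to 444 in control and from 451 to 460.1 in treated samples. Without EC-70124 replicate 3 all 10 genes passed the threshold. The part of the array scaling or of RNA quality in this pattern was not tested.

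The other genes of the pathway, from lists written down by role, rose less uniformly. Of 87 listed genes, 79 have a probe set of their own here, of which 36 were up-regulated, 8 were down-regulated and 35 did not pass, with a median log2 fold change of 0.15. Set against the 19.7% of all genes that rose and the 14.8% that fell, rises were more frequent in these lists and falls less so, as a count with no test of the lists. The list of the I-kappa-B kinase complex and its kinases also holds partner proteins that are not kinases. All 9 of its genes measured were up-regulated, with a median of 0.41. MAP3K14, the kinase NIK that drives processing of p100, had the largest change among them, from 585, 688 and 609 in control to 1639.5, 1427 and 1461 in treated arrays (log2 fold change 1.27 with a limma adjusted p = 2.1e-05). IKBKE, an I-kappa-B kinase relative induced by inflammatory signals, had a log2 fold change of 0.99 and IKBKB, the catalytic subunit IKK beta, of 0.46. Of 12 adaptors and ubiquitin ligases that link receptors to the kinases, 7 were up-regulated and none fell, led by TRAF1 (1.02), TRAF6 (0.51) and BIRC2 (0.44). Of 14 further inhibitors and negative regulators, 5 were up-regulated, none fell and 9 did not pass, with a median of 0.09. Among those that passed, the largest changes were those of the deubiquitinase gene CYLD (0.55), PDLIM2 (0.36) and COMMD1 (0.26). TNIP3 moved further than PDLIM2, in the opposite direction (-0.39), but missed the threshold (limma adjusted p = 0.213). The median of these 14 genes lay below the 1.29 of the 5 feedback inhibitors. This contrast depends on which genes were put in which list, a choice made with earlier results of these data known.

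Receptors, ligands and target genes held calls in both directions, as 19.7% (higher) and 14.8% (lower) of all genes did. For the receptors, with 3 higher and 2 lower of 11, and the ligands, with 1 higher and 1 lower of 6, such counts are not read as a result about the list. Among the receptors, TNFRSF12A, the receptor of the ligand TWEAK, rose by 0.88 on the log2 scale, with TLR3 at 0.58 and TLR4 at 0.56. The interleukin-1 co-receptor gene IL1RAP fell, with a log2 fold change of -0.69, as did TNFRSF1A, the main TNF receptor, with -0.36, and the other 6 did not pass. Of 6 ligands, the interleukin-1 genes IL1A and IL1B were the only ones past the threshold, in opposite directions. IL1A had 740.2, 865 and 761 in control and 1868, 1839 and 1376 in treated arrays (1.09), and IL1B had 624, 639.9 and 553 in control and 203, 194 and 133 in treated arrays (-1.80). TNF did not pass, with a log2 fold change of 0.12 (limma adjusted p = 0.168). Of 28 target genes, 12 rose, 5 fell and 11 did not pass, with a median of 0.19. IL32, a secreted cytokine, rose from 457, 478 and 395 to 2705, 2624 and 1962, the chemokine gene CXCL8 from 1268, 1285 and 1186 to 5604, 5246 and 3745, and IL6 from 252, 271 and 254 to 629, 682 and 709. Against these, the survival gene BCL2A1 fell with -0.97, PLAU, the urokinase gene, with -0.71 and the mitochondrial superoxide dismutase gene SOD2 with -0.52. EC-70124 replicate 3 was the lowest treated array for 8 of the 12 target genes that rose, and for 40.2% of all genes up-regulated. The rest of the 12, CCL2, IL6, GADD45B and PTGS2, were highest in it. TRAF1 stands in the adaptor and in the target list.

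**Figure D5:**
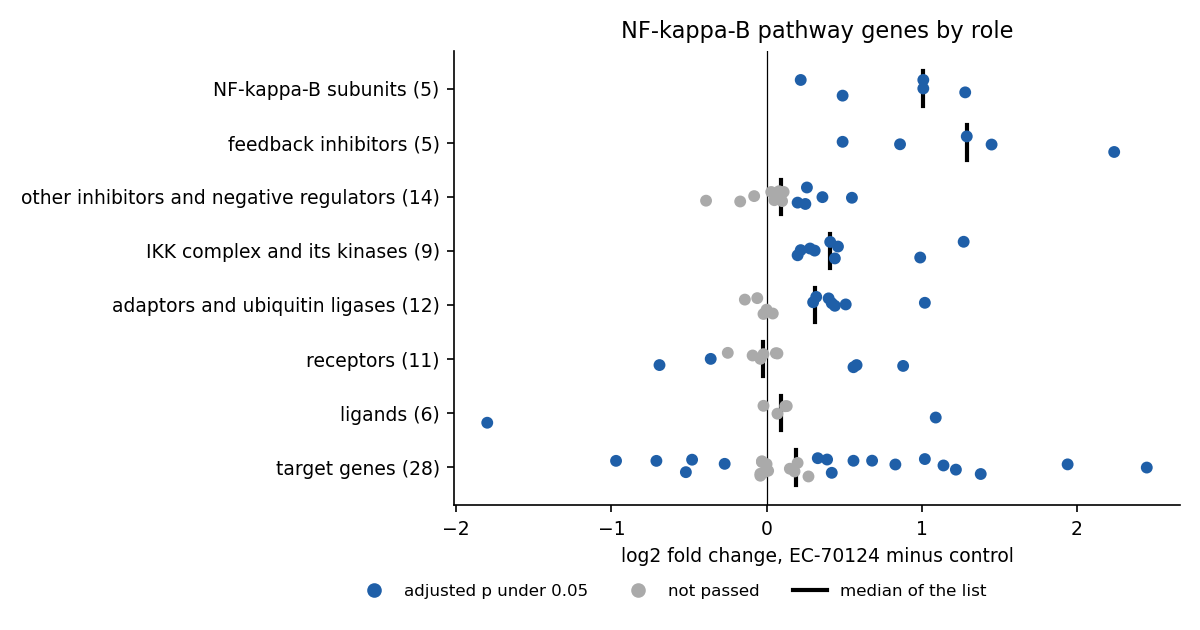
Log2 fold change (x axis, EC-70124 minus control, 3 arrays per group) of each measured gene by role in the pathway (y axis, number of genes in parentheses), with genes past the limma threshold of 0.05 in blue and the rest in gray, with the list's median as a black bar. The medians run from -0.02 for receptors to 1.29 for the feedback inhibitors, and targets range from -0.97 to 2.45.

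The cell line label could not be checked by level, since levels of different probe sets cannot be set against each other. As a description, intensities ran from 1677 to 13991 over VIM, CD44, SPARC and EGFR, from 149 to 1566 over 7 luminal and receptor markers (ESR1, PGR, ERBB2, GATA3, FOXA1, EPCAM and CDH1) and from 78.6 to 573 over 7 leukocyte and endothelial markers, and none of these 18 was at the floor of 1 in any array. As the table holds no measure of background, a low intensity does not show that a transcript is present. None of the 7 leukocyte and endothelial markers passed the test, and their summed intensity was 1730.1 to 1777 in control and 1645 to 1756 in treated arrays. In the first list CD44, SPARC and EGFR fell, with log2 fold changes of -0.29, -1.06 and -0.39, and VIM had -0.07 and did not pass. Of the 7 luminal and receptor markers, GATA3 (0.46, limma adjusted p = 4.5e-04) and CDH1 (0.19, limma adjusted p = 0.049) rose and the other 5 did not pass. Over all genes 19.7% rose and 14.8% fell, and the marker lists were not tested. The rises of GATA3 and CDH1 are not read as a result about their list.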

How the data were processed

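Total RNA of 3 control and 3 EC-70124 samples, called independent in the study's methods, was hybridized to Affymetrix Human Gene ST arrays. In dChip the authors scaled the arrays pair-wise on rank invariant probes. They deposited 1 model-based index of expression for each probe set, which is an intensity on a linear scale. For the dChip version, its background correction, scan dates and batches, nothing is given in the sources used here. The number of arrays limits the precision (the median SE of log2 fold changes was 0.07). Of 33252 probe sets, 19460 carry 1 symbol, 1754 several and 12038 none in the platform annotation. Matching Entrez identifiers to RefSeq (GRCh38.p14) changed 0 symbols, with 31 unmatched. Intensities were floored at 1 and taken as log2, the probe set with the highest mean log2 was kept for each of 18417 genes, and groups were compared with lmFit and eBayes (limma 3.58.1, R 4.3.3) at a 2-sided Benjamini-Hochberg adjusted p under 0.05 over all genes. Ratios between related genes were tested by exact permutation. The limma script was tested on simulated data. Genes were named by rule: the 10 members, up to 3 in each direction per pathway list, and the markers. TNF, TNIP3, CCL2, GADD45B, PTGS2 and TRAF1's second list were named after values were seen. The members and lists were chosen with earlier results of these data known. Genes without a probe set of their own were not analysed here. Promoter sequences are those of RefSeq on GRCh38.p14, used without the bases after the start. Alternatives covered quantile normalization, cyclic loess, an offset of 50, the 30% dimmest genes left out, the median over probe sets, all probe sets, limma's trend and robust options, the methods' t-test (named there for ranking genes), the replicate block and leaving out each array.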

Additional observations from a re-analysis of the deposited data

How the results depend on the processing

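All 10 genes were higher in treated samples in each of the 15 alternatives. NFKB1, NFKB2, RELB, NFKBIB, NFKBIE and TNFAIP3 passed the threshold in all 15, NFKBIA and REL in 14, RELA in 11 and NFKBIZ in 9. With the methods' t-test after adjustment, 6 of the 10 genes, 21 (higher) and 4 (lower) of the other pathway genes, and 1962 (higher) and 1280 (lower) of all genes passed, against 10, 36, 8, 3631 and 2722 in limma. This test estimates the spread of each gene from its own arrays alone. Without 1 array, 8 to 10 of the 10 genes, 29 to 39 (higher) and 7 to 8 (lower) of the other pathway genes, and 2991 to 3888 (higher) and 2133 to 2947 (lower) of all genes passed. Of the genes called, 57.2% were higher as deposited and 46.9% after quantile normalization. The ratio of NFKB2 to NFKB1, with a difference of 0.0039, ran from -0.03 to 0.04 without 1 array, and turned sign without control replicate 1 (-0.03), EC-70124 replicate 1 (-0.00098) or EC-70124 replicate 3 (-0.01). The other 6 ratios kept their direction wherever they were run. Replicate numbers are shared by both groups, but same-numbered arrays did not deviate together in every pair (correlations of 0.13, -0.02 and 0.14 over genes), and 3 of 6 arrays correlated best with their own number. With the replicate block, 10 of the 10 genes, 35 (higher) and 9 (lower) of the other pathway genes passed. The block cannot move the mean difference of a ratio here, and the exact p of the 5 ratios without overlap went from 0.1 to 0.25, the smallest that 3 pairs allow. The table holds no background measure, and dim probe sets may lie within it.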
